A study of Mus musculus with 9 samples.

Results

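The Schlafen genes are a mouse gene family named after a German word for sleep, because early members slowed the growth of T cells. The members examined were Slfn1, Slfn2, Slfn3, Slfn4, Slfn5, Slfn8, Slfn9 and Slfn10, chosen by the gene symbol of their probe sets. All 8 members were found among the 18193 genes of the array, on 12 of its 34945 probe sets that name a single gene. Slfn10 was matched through Slfn10-ps, the symbol under which the gene table lists Slfn10 as an older name. The family was picked because Slfn8 differed strongly between the hairpins used here. All values of Slfn8, and every difference between the hairpins, are therefore given as a description with no test.

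The arrays measured mRNA in 3T3-L1 cells, a mouse line that matures into fat cells in culture. Mature cells received lentivirus with a scrambled control hairpin, with hairpin 1 or with hairpin 2, both directed at Ebf1, a transcription factor of fat and B cells. Each of the 3 groups holds 3 arrays, which the titles call repeats without saying whether they were separate cultures, so p-values measure the spread between these arrays and it may be technical. All groups share the cell line, 3 to 4 rounds of infection and puromycin at 5 µg/ml for at least 8 days, and the comparison of each hairpin with scrambled uses the same scrambled arrays. The repeats of a hairpin all carry a single hairpin sequence, so its effect on Ebf1 and any effect on other transcripts cannot be told apart within a group.

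Schlafen proteins share an amino-terminal core domain with RNA-cleaving activity in several members, and the long members also carry a helicase-like region. Most mouse members are known as interferon-induced genes: interferon binds its receptor, JAK kinases activate STAT proteins, and a complex that holds IRF9 binds a response element in the promoters of their targets. Slfn1 and Slfn2 are short members studied in T cell quiescence, Slfn3 and Slfn4 are of intermediate length, and Slfn5, Slfn8, Slfn9 and Slfn10 belong to the long class. In whole cultures, fewer cells of a type and less RNA per cell cannot be told apart.

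The family lies in a single stretch of mouse chromosome 11. Promoter windows of 300 bases, from 250 before to 50 after an annotated start, were found in RefSeq (GRCm38.p6) for 7 of the members, in 8 windows because Slfn8 has a pair of starts. Slfn10-ps has no window there. The windows of the 3 members that passed the signal filter are printed because the results turn on them. Each reads 5′ to 3′ on the strand of its gene, and capitals mark a match to the core of the interferon-stimulated response element, GAAANNGAA on either strand. The Slfn8 window is chr11:83020761-83021060 on the minus strand, that of Slfn9 is chr11:82991781-82992080 on the minus strand, and that of Slfn2 is chr11:83064862-83065161 on the plus strand.
Slfn8: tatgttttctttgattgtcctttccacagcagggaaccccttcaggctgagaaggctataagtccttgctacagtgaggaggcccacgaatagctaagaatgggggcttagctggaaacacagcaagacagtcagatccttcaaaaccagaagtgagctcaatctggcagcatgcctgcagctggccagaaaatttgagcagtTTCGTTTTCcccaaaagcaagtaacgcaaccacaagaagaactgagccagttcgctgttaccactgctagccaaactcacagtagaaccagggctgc
Slfn9: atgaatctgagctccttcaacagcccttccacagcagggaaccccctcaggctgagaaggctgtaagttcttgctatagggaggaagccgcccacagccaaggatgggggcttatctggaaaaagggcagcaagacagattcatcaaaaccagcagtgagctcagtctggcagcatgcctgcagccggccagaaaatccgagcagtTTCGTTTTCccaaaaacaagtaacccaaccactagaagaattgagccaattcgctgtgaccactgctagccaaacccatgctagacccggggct
Slfn2: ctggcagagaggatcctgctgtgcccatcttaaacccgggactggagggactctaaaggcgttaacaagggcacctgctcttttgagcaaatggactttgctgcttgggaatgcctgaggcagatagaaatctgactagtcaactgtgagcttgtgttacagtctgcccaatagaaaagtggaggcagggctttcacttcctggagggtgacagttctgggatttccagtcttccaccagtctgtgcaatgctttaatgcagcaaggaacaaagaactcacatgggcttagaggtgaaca

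The Slfn8 and Slfn9 windows carry the same match, TTCGTTTTC as read above, which is GAAAACGAA on the other strand. It spans positions -47 to -39 from the Slfn8 start and -44 to -36 from the Slfn9 start, and from the other Slfn8 start it spans -135 to -127. These windows are close copies: in a global alignment with free end gaps 250 of 289 aligned bases were identical (83.3% of the window), with an unbroken shared run of 20 bases, tctggcagcatgcctgcagc. For the other 20 pairs of members the identical share of the window was between 4.33% and 52.7%, and the longest shared run was 6 to 15 bases. This share depends on how much was aligned, from 17 bases (Slfn4 and Slfn5, 13 identical) to 218 (Slfn2 and Slfn5, 158 identical). Slfn2 and Slfn3 had 99 of 119 aligned bases identical. The Slfn2 window holds no match to these letters. Slfn5 holds 2 matches, at -155 to -147 and at -132 to -124, and the windows of Slfn1, Slfn3 and Slfn4 hold none.

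The core occurs in 8.56% of all 32851 promoter windows. By gene, it occurs in 9.76% of 27025 genes, in 3 of the 7 Schlafen genes and in 18 of 40 genes of an interferon pathway list (45%). With 1 base less of spacing, GAAANGAA, it occurs in 9.13% of genes, in 1 of the 7 and in 9 of the 40 (22.5%). The STAT site core, TTCNNNGAA, occurs in 8.3% of windows and in none of the 8 Schlafen windows. The Ebf site core, CCCNNGGG, occurs in 13.7% of windows and, among the Schlafen windows, only in that of Slfn1, at -196 to -189. Both strands were searched, and no matches of different motifs overlapped in these windows. A match is a run of letters and not a measured binding site, and a window without one says nothing about the factor.

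**Figure D1:**
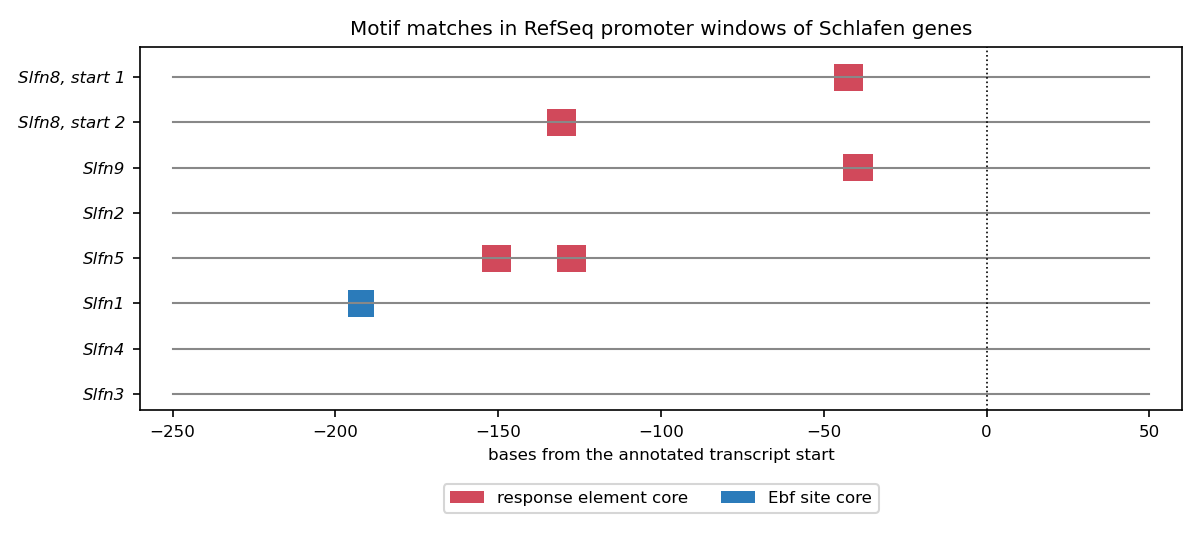
Matches to the response element core (red) and the Ebf site core (blue) in the 8 RefSeq promoter windows of Schlafen genes, against the distance in bases from the annotated transcript start. Slfn8 and Slfn9 have a match at -47 to -39 and at -44 to -36, while the Slfn2 window has none.

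Ebf1, the target of both hairpins, read 10.12, 10.15 and 10.31 on the log2 scale on the scrambled arrays, 9.32, 9.54 and 9.45 with hairpin 1, and 8.90, 8.72 and 9.20 with hairpin 2. Every hairpin array lay below every scrambled array. Array medians ran from 6.31 to 6.38, and correlations between arrays from 0.994 to 0.998 within groups and from 0.974 to 0.989 between groups. Markers of fat cells were high in all groups, as for Fabp4 (14.89), Adipoq (14.82) and Cd36 (13.83) on scrambled arrays. Genes were tested when the mean of their probe set reached 5.72, the 30th percentile of gene means, which left 12735 genes. At a limma adjusted p below 0.05, 9.23% of these were lower and 23.7% higher with hairpin 1, 13.3% lower and 21.5% higher with hairpin 2, and 4.87% lower with both. After quantile normalization the share of higher genes among the hairpin 1 calls was 59.1%, against 72.0% in the values as deposited.

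Slfn8, Slfn9 and Slfn2 were lower with each hairpin, and lowest with hairpin 2, while the other 5 members lay near the array floor in every group. Slfn9 fell 2.60-fold with hairpin 1 and 5.46-fold with hairpin 2, and Slfn2 fell 2.36-fold and 3.76-fold (limma, tests below; n = 3 arrays per group). Slfn8 stood 2.88-fold lower with hairpin 1 and 22.6-fold lower with hairpin 2 than on scrambled arrays. Of the 8 members, 3 passed the signal filter, and Slfn9 and Slfn2 are those among them that were tested. All 3 lay above 5.72 on each of the 9 arrays, so none passed through a single high group. For all 3 no array overlapped between groups; by that rule 12.9% of genes tested lay lower with hairpin 1 than on scrambled arrays, 19.3% lower with hairpin 2 than on scrambled arrays, and 21.0% lower with hairpin 2 than with hairpin 1.

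Slfn8, a long member whose protein carries the helicase-like region, read 10.90, 11.01 and 11.12 on the scrambled arrays. With hairpin 1 it read 9.09, 9.48 and 9.88, and with hairpin 2 it read 6.46, 6.79 and 6.29. The groups did not overlap, and the hairpin 1 arrays were the most spread (SD 0.39, against 0.11 for scrambled and 0.25 for hairpin 2). Its mean went from 11.01 to 9.49 and 6.51, differences of -1.53 and -4.50 log2 units that left 34.7% and 4.42% of the scrambled signal. Between the hairpins the difference was -2.97 log2 units, the third lowest of 12735 genes (rank 3), which is the value the family was chosen for. The hairpin 2 mean of 6.51, above the signal filter of 5.72, lay at the 46.9th percentile of probe sets that name a single gene. Array signals near the floor are known to compress differences, and the part of such compression here was not tested. Slfn8 has a single probe set on the array.

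Slfn9, a long member beside Slfn8 in gene order and its nearest copy in promoter sequence, read 9.60, 9.54 and 9.42 on the scrambled arrays. It read 7.99, 8.16 and 8.28 with hairpin 1 and 7.21, 7.04 and 6.97 with hairpin 2. Again no array of a group overlapped another group, with SDs of 0.09, 0.15 and 0.12. The differences from scrambled were -1.38 with hairpin 1 (SE 0.101, limma adjusted p = 5.46e-08) and -2.45 with hairpin 2 (SE 0.101, adjusted p = 1.97e-11), each far larger than the spread between arrays. Hairpin 2 minus hairpin 1 was -1.07 log2 units.

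A further Slfn9 probe set read much nearer the floor and showed small differences. It read 6.21 to 6.37 on scrambled arrays, 6.06 to 6.15 with hairpin 1 and 5.94 to 6.15 with hairpin 2, so both hairpin groups lay below the scrambled group. In a fit over all 34945 probe sets, where 5.35% and 8.34% were called lower, its differences of -0.21 and -0.24 did not pass (limma adjusted p = 0.128 and 0.0714). The main Slfn9 probe set was called in that fit too. Averaging both probe sets gave differences of -0.79 and -1.34, with adjusted p no higher than 6.17e-06 over all the alternatives tried. Slfn8 and Slfn9 are close paralogs, and probe sequences were not used here, so how far a probe set of one also reads the other was not tested.

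Slfn2, a short member that keeps T cells quiescent, read 8.81, 8.45 and 8.63 on the scrambled arrays. It read 7.19, 7.48 and 7.51 with hairpin 1, and 6.89, 6.89 and 6.39 with hairpin 2. The groups did not overlap, with SDs of 0.18, 0.17 and 0.29. The differences from scrambled were -1.24 log2 units with hairpin 1 (SE 0.138, limma adjusted p = 5.41e-06) and -1.91 with hairpin 2 (SE 0.138, adjusted p = 2.14e-08). Hairpin 2 minus hairpin 1 was -0.67 log2 units.

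**Figure D2:**
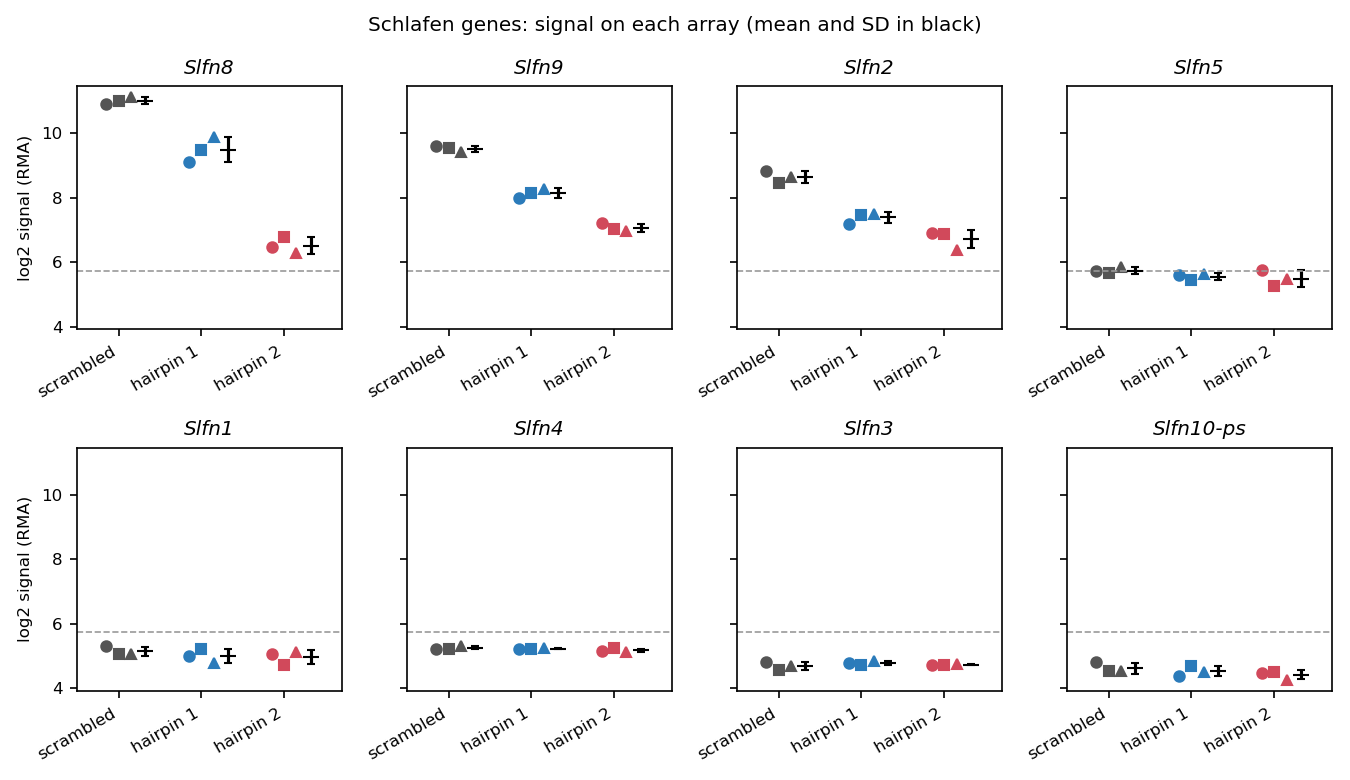
Log2 signal of the 8 Schlafen genes on each of the 9 arrays (circle, square and triangle for repeats 1, 2 and 3), with the group mean and SD (n = 3) in black and the signal filter of 5.72 as a dashed line. Slfn8, Slfn9 and Slfn2 step down from scrambled to hairpin 1 to hairpin 2 with no overlap, and the other members stay near or below the filter.

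With hairpin 1 the 3 members differed from scrambled by similar amounts, -1.24 to -1.53, and with hairpin 2 by -1.91 for Slfn2, -2.45 for Slfn9 and -4.50 for Slfn8. In that order the scrambled means were 8.63, 9.52 and 11.01, and the hairpin 2 means were 6.72, 7.07 and 6.51. The larger falls thus began at higher signals. With hairpin 2 all 3 ended between the 46.9th and 53.4th percentiles of probe sets that name a single gene. How far compression near the floor shaped these falls, and the likenesses to other genes given below, was not tested. Between the hairpins Slfn9 and Slfn2 ranked 87 and 303 from the lowest of 12735 genes. The order scrambled above hairpin 1 above hairpin 2 held on every array for these 3 members and for 2.72% of genes tested; that order uses the contrast behind the choice of the family. Repeat 1 was the lowest hairpin 1 array for Slfn8, Slfn9 and Slfn2 alike, and repeat 3 was the lowest hairpin 2 array for all 3. Ebf1 was also lowest on repeat 1 of hairpin 1 (9.32) but highest on repeat 3 of hairpin 2 (9.20).

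The other 5 members had means over the 9 arrays below the signal filter. Slfn5, a long member, came nearest, with a mean of 5.59 over the 9 arrays against the filter of 5.72; the lowest mean among members that passed was that of Slfn2, 7.58. Slfn5 read 5.65 to 5.84 on scrambled arrays, 5.44 to 5.62 with hairpin 1 and 5.24 to 5.75 with hairpin 2, and the hairpin 2 group overlapped scrambled. Its other probe sets read 4.58 to 4.93 over all arrays. Tested without the filter, Slfn5 differed by -0.19 and -0.25 and did not pass (limma adjusted p = 0.26 and 0.119).

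Slfn1, a short member like Slfn2, read 4.70 to 5.30 on its brighter probe set and 4.89 to 5.06 on the other. Slfn4, an interferon-induced gene of myeloid cells, read 5.13 to 5.31, and Slfn3, a member studied in gut epithelium and T cells, 4.56 to 4.85. Slfn10-ps, annotated as a pseudogene in its name, read 4.25 to 4.80. Without the filter none of these 4 passed with either hairpin, with differences from -0.20 to 0.10 log2 units and adjusted p from 0.149 to 0.764. Signals this close to the floor cannot show whether these members changed. A probe set that names both Slfn3 and Slfn4 was left out of the tests and read 4.88 to 5.23.

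Genes of the interferon pathway were described from a list of 49 symbols, drawn up with earlier results of these data known. Of its members, 46 were on the array and 43 were tested. With hairpin 1, 33 of the 43 were lower and 0 higher, with a median of -0.90 log2 units; with hairpin 2, 37 were lower and 0 higher, with a median of -2.61. Of these, 2 genes, Ifnb1 and Oas3, passed the filter only through the scrambled arrays and so had to differ. Among the other 41, 31 were lower with hairpin 1 and 35 with hairpin 2, with 0 higher and medians of -0.90 and -2.64. Over all genes tested the medians were 0.07 and 0.02, and 9.23% and 13.3% were lower. With array quality weights, or with the mean of all probe sets, 1 list gene was higher with hairpin 1.

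Upstream steps of the pathway were mixed. Ifnb1, the interferon beta gene, read 6.45 ± 0.34 on scrambled arrays (SD, n = 3) and 5.58 and 5.50 with hairpin 1 and hairpin 2, both below the filter level. It passed the filter only through the scrambled arrays, so its lower values are a description. Ifna2, Ifna4 and Ifng lay below the filter. The interferon receptor gene Ifnar1 differed by 0.03 and 0.01 and did not pass (limma adjusted p = 0.801 and 0.968). Ifnar2, its partner subunit, fell with hairpin 2 (-0.43); its value for hairpin 1, -0.11, missed the threshold (limma adjusted p = 0.0929). Of the receptor genes for interferon gamma, Ifngr2 fell with each hairpin (-0.52 and -0.80) and Ifngr1 fell with hairpin 2 (-0.29), its hairpin 1 value being 0.09. The receptor kinase genes Jak1 (0.04 and -0.22) and Tyk2 (0.07 and -0.06) did not pass with either hairpin, and Jak2, another such kinase gene, fell with hairpin 2 (-0.29; -0.13 for hairpin 1).

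The transcription factor genes that act downstream of the receptor fell. For hairpin 1 and hairpin 2 the differences were -0.79 and -1.94 log2 units for Stat2, and -0.60 and -1.84 for Irf9, its DNA-binding partner. Irf7, which amplifies interferon responses, also fell (-1.82 and -3.92). Among induced genes, 26 of 27 were lower with hairpin 1 and 27 with hairpin 2, beside 9.23% and 13.3% of all genes tested. The 27 include Oas3, which passed the filter only through the scrambled arrays and so had to differ. Ifit1 (-1.60 and -4.66) and the antiviral GTPase gene Mx1 (-3.63 and -4.94) were among those that fell. Of 3 inhibitor genes, 1 was lower with each hairpin: Usp18, which acts at the receptor, fell (-1.93 and -4.49), while the suppressor genes Socs1 (0.03 and 0.02) and Socs3 (0.05 and 0.13) did not pass. The differences of Slfn8 (-1.53 and -4.50) lie beside those of Ifit1 and Usp18. Those of Slfn9 (-1.38 and -2.45) lie near those of the induced gene Trim30a (-1.14 and -2.43). Slfn2 (-1.24 and -1.91) was near Stat2 and Irf9 with hairpin 2, but fell further than either with hairpin 1. Isg15 is named only by a probe set with several genes.

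**Figure D3:**
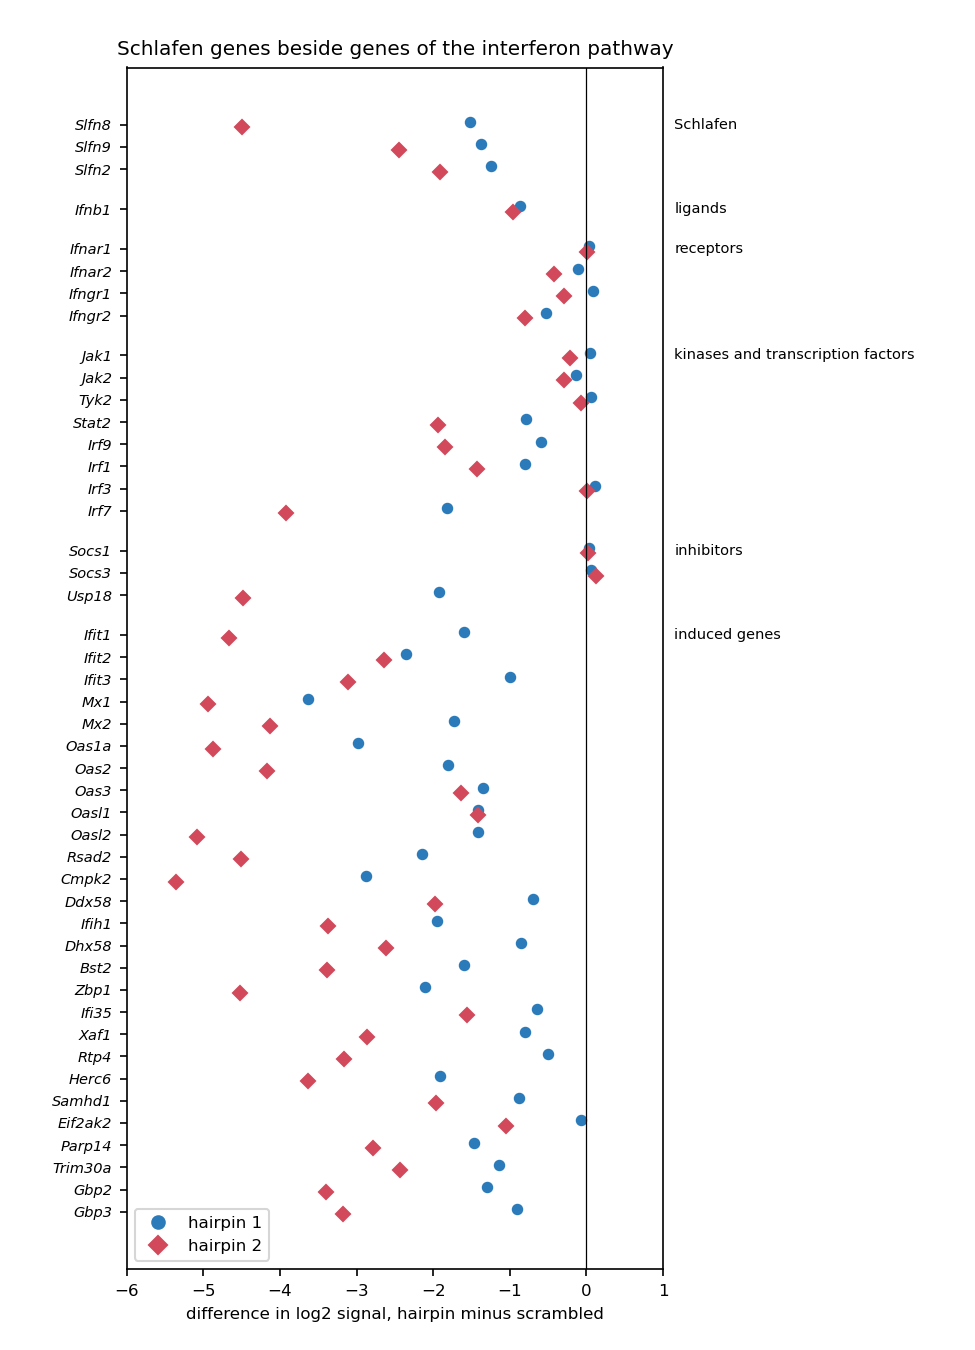
Difference in log2 signal from scrambled for hairpin 1 (circles) and hairpin 2 (diamonds), for the 3 Schlafen genes that passed the filter and the 43 tested genes of the interferon pathway list, grouped by role; both hairpins are compared with the same scrambled arrays. All 27 induced genes lie left of 0 with both hairpins, Eif2ak2 barely so with hairpin 1 (-0.07), and Slfn8 goes from -1.53 to -4.50.

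The genes with the pattern most like each member were found by the root mean square distance over the 9 arrays between log2 values set to 0 at the scrambled mean, among 12008 named genes outside the family. Nearest to Slfn8 was Ifit1, an interferon-induced gene that binds foreign RNA (distance 0.165 log2 units). It was followed by Mx2, an antiviral GTPase gene (0.258), Usp18 (0.265), the oligoadenylate synthetase gene Oas2 (0.271) and Apod, an apolipoprotein gene (0.299). Nearest to Slfn9 were the complement factor B gene Cfb (0.178) and the tripartite motif gene Trim30a (0.180), and nearest to Slfn2 the histone gene H3c11 (0.200) and Parp11, an ADP-ribosyltransferase gene (0.201). Within the family Slfn9 and Slfn2 were 0.347 apart, Slfn8 and Slfn9 1.20, and Slfn8 and Slfn2 1.52. The nearest genes were picked for closeness on these same arrays, so their likeness is a description. The Slfn8 pattern also holds the difference between the hairpins that the family was chosen for.

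**Figure D4:**
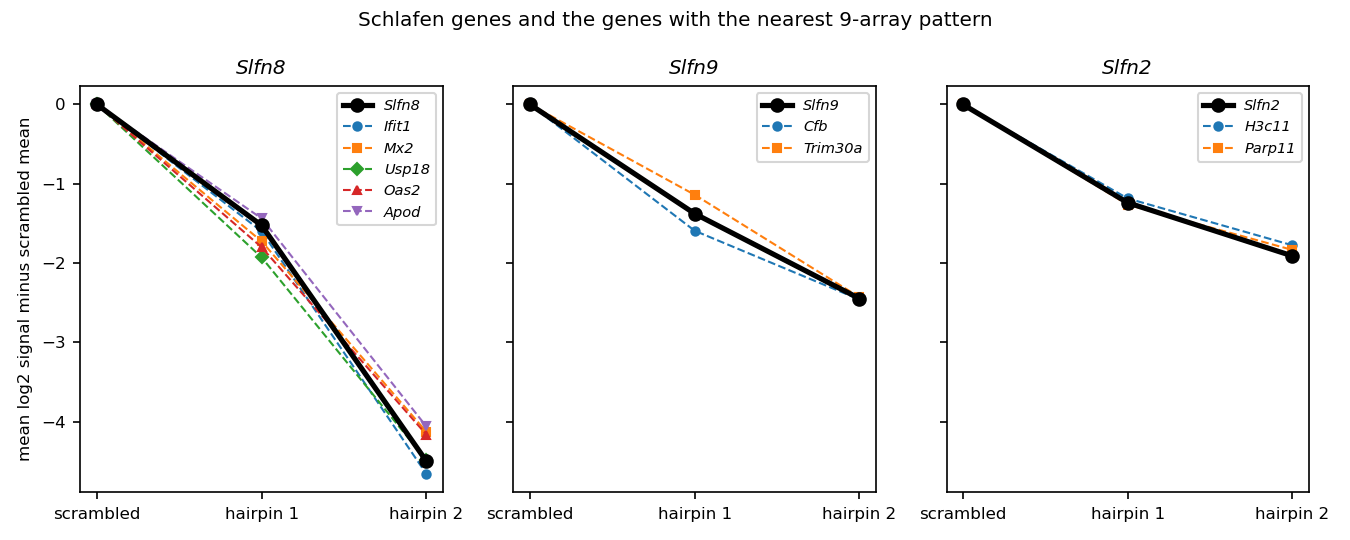
Mean log2 signal of each group minus the scrambled mean, for Slfn8, Slfn9 and Slfn2 (black) and for the genes with the nearest pattern over 9 arrays (dashed). Slfn8 and its nearest genes end between -4.06 and -4.66 with hairpin 2, below Slfn9 (-2.45) and Slfn2 (-1.91). The dashed genes were picked for closeness on these same arrays, so they lie near each member by choice.

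The genes beside the family on chromosome 11 are given for comparison. The gene table places 9 Schlafen genes, Slfn14 among them, in a span of 19 annotated genes; no Slfn14 value was used here. Of the 20 nearest genes on the array, 10 on each side, 14 were tested, 6 before the family and 8 after it. With hairpin 1, 7 of the 14 were called, 5 higher and 2 lower, and with hairpin 2, 5 were called, 3 higher and 2 lower, beside 33.0% and 34.8% of all genes tested called in either direction. Over all genes tested 23.7% were higher and 9.23% lower with hairpin 1, and 21.5% higher and 13.3% lower with hairpin 2, so the hairpin 2 counts are near those of genes at large. The counts by hairpin dropped to 4 for hairpin 1 without scrambled repeat 2 or 3 or hairpin 1 repeat 2 or 3, were 9 for hairpin 1 without its repeat 1, and dropped to 3 for hairpin 2 without scrambled repeat 2 or 3.

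The nearest genes before the family, Slfn5os, Unc45bos and Unc45b, lay below the filter. Slfn5os, an antisense transcript of Slfn5, read 5.31 to 5.64 over all arrays. Just after the family, Ap2b1, an adaptor gene of clathrin-coated vesicles, differed by 0.20 and -0.06, and the small GTPase gene Rasl10b by -0.13 and 0.08, none of which passed (limma adjusted p = 0.10 to 0.678). Gas2l2, the next gene, rose under hairpin 1 (0.31, adjusted p = 0.0459), while its hairpin 2 value of 0.12 missed the threshold. Both flanking genes that fell are chemokine genes farther along, Ccl5 (-5.55 and -7.86 log2 units) and Ccl9 (-0.41 and -0.99). Ccl6, in the same chemokine group, rose by 1.66 with hairpin 1 (adjusted p = 2.62e-08) and 0.36 with hairpin 2 (adjusted p = 0.0201). The next largest called differences were those of Taf15, an RNA-binding protein gene that rose with hairpin 1 (0.39, adjusted p = 0.0486) and read -0.27 with hairpin 2 (adjusted p = 0.160), and of 1700020L24Rik, which rose with both (0.34 and 0.38).

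**Figure D5:**
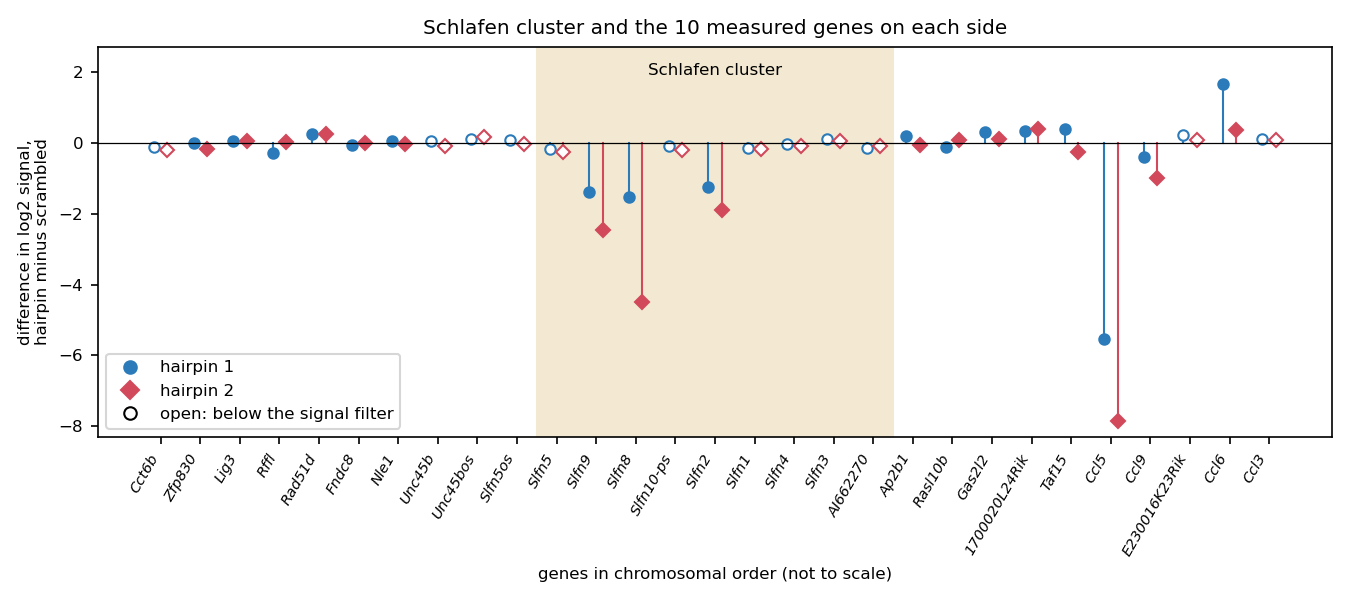
Difference in log2 signal from scrambled with hairpin 1 (circles) and hairpin 2 (diamonds) for genes on the array, in chromosomal order and not to scale, across the Schlafen family (shaded) and the 10 genes on each side; open symbols lay below the signal filter. Slfn9, Slfn8 and Slfn2 point down, and Ccl5 is the lowest point at -5.55 and -7.86. The genes near 0 in the shaded part, and those just before it, are open symbols, so a fall could hardly show there.

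Schlafen genes are also expressed in leukocytes, so markers of other cells are given beside their falls. Of 10 leukocyte and macrophage markers 6 passed the filter: Laptm5 fell with both hairpins (-1.22 and -1.82), and Cd68 read 5.67, 5.65 and 6.84 from scrambled to hairpin 2, having passed the filter only through hairpin 2. Ptprc, the pan-leukocyte marker CD45, read 4.63 to 5.06 over all arrays, and Itgam and Adgre1 were also below the filter. The summed linear signal of the 10 was 1843 to 2776 on scrambled arrays, 1464 to 1657 with hairpin 1 and 1215 to 1603 with hairpin 2. This sum mostly follows Laptm5, the brightest of the 10 on scrambled arrays (mean 10.48, SD 0.59), ahead of Cd14 (9.02). Its fall is thus largely that of a single, variable gene. Cd14 (0.01 and -0.15) and Csf1r (0.08 and 0.18) did not pass with either hairpin.

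Of 7 T and B lymphocyte markers on the array 5 passed the filter, and of these Thy1 rose (0.92 and 1.96), a gene that fibroblasts express too. The summed signal of the 7 was 1006 to 1164, 1444 to 1688 and 2454 to 3188 from scrambled to hairpin 2. It mostly follows Thy1, the brightest of them (means of 9.18, 10.11 and 11.14). Of 8 fibroblast and preadipocyte markers 6 were tested; hairpin 1 raised all 6, among them Col3a1 (0.25), Dcn (1.42) and Lum (1.58), and under hairpin 2 Dlk1 fell (-0.83) while the other 5 rose, with summed signals of 27329 to 29762, 43236 to 46096 and 47609 to 50859. Of 6 endothelial markers 1 was tested and it did not pass, and their summed signal was 253 to 280 over all arrays. Of 8 adipocyte markers, 1 was lower with hairpin 1 (Pparg, -0.25) and 2 with hairpin 2 (Pparg, -0.56, and Cidec, -0.25), and the sums were 110874 to 115132, 108271 to 110720 and 107368 to 108556. The part of these shifts in the falls of the Schlafen genes was not tested.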

How the data were processed

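Each of the 9 arrays gave 1 deposited log2 value per probe set. RMA is the tool named for these log2 values in the submitters' processing notes, and the authors' version is not given in the sources used here; RNA was amplified with a NuGEN kit, per the labels' protocols. Probe sets were named from the platform table, whose builds and probe positions are not given in the sources used here. Of 45101 probe sets, 64 controls, 932 with several symbols and 9160 unnamed were left out, and 0 value columns were unmapped. Each gene was read from its probe set with the highest mean. Genes at or above the 30th percentile were fitted with limma 3.58.1 in R 4.3.3 (3 groups, eBayes with trend, two-sided, Benjamini-Hochberg over all genes tested, threshold 0.05). The chain was tested on simulated data. With 3 arrays a group, their number limits precision. Members, lists and motifs were chosen with earlier results of these data known. The text names all members, Ebf1, fixed interferon genes, the nearest patterns (5 for Slfn8, 2 for the others), flanking genes nearest to the family or called with the largest differences for either hairpin, and leading markers. Ifna2, Ifna4, Ifng, Ifngr1, Ifngr2, Jak2, Socs1, Socs3, Oas3, Dlk1, Pparg, Cidec, Ptprc, Cd68, Thy1, Itgam and Adgre1 were named after their values were seen. Sequences are RefSeq's (GRCm38.p6), aligned with Biopython 1.88. Alternatives covered scaling, filter, probe sets, weights, variance trend, samples fitted, a replicate block and leaving out each array.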

Additional observations from a re-analysis of the deposited data

How the results depend on the processing

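Under 19 alternatives, 9 of which leave out an array, Slfn2 and Slfn9 stayed lower with each hairpin and past the threshold: 2 Schlafen genes were called throughout. For hairpin 1 the lowest and highest differences were -1.33 and -1.14 for Slfn2 and -1.46 and -0.79 for Slfn9; for hairpin 2 they were -2.0 and -1.74, and -2.52 and -1.34. Slfn8 ran from -1.72 to -1.19, from -4.64 to -4.39 and, between the hairpins, from -3.33 to -2.78. Slfn9 between the hairpins was -0.55 with the mean of its probe sets. Flanking genes called numbered 4 to 9 (hairpin 1) and 3 to 5 (hairpin 2) when single arrays were left out. The list median with hairpin 2 was -2.20 without a filter or with every probe set and -2.10 with the mean of probe sets. Over all genes, 7460 were called with hairpin 1 under array weights against 4199. With every probe set, 7013 of 34945 probe sets were called with hairpin 2, against 4430 of 12735 genes, so these counts have unlike totals. With 1 base less spacing the response element core matched 7.98% of promoter windows, 9 of 40 list genes in place of 18 and 1 of 7 Schlafen genes in place of 3. The causes were not tested. Repeat numbers were not used as a pairing in the main fit. Of 9 correlations of deviations, 3 exceeded 0.1 and the lowest was -0.293, and 1 of 9 arrays correlated best with its own number in both other groups. With 3 arrays a group these values cannot exclude a pairing by number. With the replicate block 4281 and 4470 genes were called, and Slfn2 (adjusted p = 7.11e-06 and 3.39e-08, limma) and Slfn9 kept their calls. Low signal over background limits what can be said of the 5 members below the filter.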
